A study of Mus musculus with 4 samples.

Results

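The 7 genes described here, Tnnt2, Actc1, Pln, Corin, Myom1, Ldb3 and Nexn, are known chiefly from heart muscle and were measured in smooth muscle cells of the mouse aorta. They are all rows of the 4 count matrices that carry those symbols, 7 of 32287 listed genes. They were chosen with values of the comparison below, and with their detection in the same cells, in view. All levels, shares and pairwise counts of these 7 genes are therefore given as a description.

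Single-cell RNA sequencing was done on 2 libraries of control cells (WT) and 2 libraries of cells from mice in which the TGF-beta receptor genes Tgfbr1 and Tgfbr2 were floxed (Tgfbr1/2iSMCKO, KO). Mice of both genotypes were C57BL/6J, aged 12 weeks, and carried the tamoxifen-inducible Myh11-CreERT2 and the mT/mG reporter, so that Cre acted in cells that use the Myh11 promoter and recombined cells switched from tdTomato to GFP. The control mice are designated GFPiSMC and carry no floxed receptor gene in their label. Both genotypes received tamoxifen for 5 days, at 1 mg per day when treated at 4 weeks or 2 mg per day when treated at 11 weeks, and since the course of each library is not recorded in the labels, course and genotype cannot be told apart. Single, viable, GFP-positive cells from the ascending aorta and arch were sorted after digestion in the cold and counted with unique molecular identifiers (UMIs), each of which stands for 1 captured RNA molecule. The labels speak of individual aortic segments without saying how many animals a library holds, so p-values measure the spread between these samples, which may be technical.

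In heart muscle, force comes from sarcomeres, in which thin filaments of actin slide past thick filaments of myosin between Z-discs. Calcium released from internal stores binds the troponin complex and starts contraction, and calcium pumped back into the store ends it. Smooth muscle of the vessel wall has no troponin-based switch: it contracts when its myosin light chains are phosphorylated, and it anchors its filaments in dense bodies that share several proteins with the Z-disc. Parts of the ascending aorta and arch derive from progenitors that also build the outflow tract of the heart, and others from neural crest.

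The matrices held 35715682 to 59498336 UMIs per library, and 2429, 3265, 4252 and 3522 cells of WT 1, WT 2, KO 1 and KO 2 passed the filters described under processing, with medians of 13898 to 15383 UMIs per cell. Any pair of libraries shared 3 to 6 cell barcodes. The 8 smooth muscle markers summed to between 46233 and 52654 CPM (UMIs scaled to a common library total) in every library, with Acta2 and Myh11 among them, so the labelled cell type carried its markers. In the library order just given, Tgfbr1 was at 80.8, 82.3, 73.3 and 76.1 CPM and Tgfbr2 at 51.6, 45.1, 46.5 and 47.3 CPM, and 3′ tags outside a deleted exon check nothing about recombination. tdTomato was at 0.0287 and 0.142 CPM in the WT libraries, and the KO libraries had 9.97 and 6.75 CPM, and its part in the results below was not tested.

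The genes lie on 7 chromosomes. Positions are those of GENCODE M21 on GRCm38. Tnnt2 (ENSMUSG00000026414), cardiac troponin T, the subunit that ties the troponin complex to tropomyosin, lies on chromosome 1 from 135836354 to 135852260. Actc1 (ENSMUSG00000068614), alpha-cardiac actin of the thin filament, lies on chromosome 2 from 114047282 to 114053548. Nexn (ENSMUSG00000039103), the actin-binding Z-disc protein nexilin, lies on chromosome 3 from 152236982 to 152266350, and Ldb3 (ENSMUSG00000021798), the Z-disc scaffold also called Cypher or ZASP, on chromosome 14 from 34526603 to 34588682. Myom1 (ENSMUSG00000024049), myomesin 1, which crosslinks thick filaments at the M-band, lies on chromosome 17 from 71002633 to 71126856. Pln (ENSMUSG00000038583), phospholamban, the inhibitor of the calcium pump of the store, lies on chromosome 10 from 53337667 to 53345987. Corin (ENSMUSG00000005220), the membrane protease that activates atrial natriuretic peptide, lies on chromosome 5 from 72300025 to 72504473. Counts are per gene, with no split into exons, introns or UTRs. Pln lies within Cep85l (19.2 CPM) and overlaps Gm47644 (3.19 CPM), and the start of Myom1 overlaps Myl12a (442 CPM), all on the opposite strand. The sources used here do not state whether counting used strand, so reads of these partners may not be told apart from those of Pln and Myom1.

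Promoters of 6 of the 7 genes were found in the RefSeq table of GRCm38.p6, and the bases before the first listed start are shown for 5 of them, because they carry the muscle motifs searched for and belong to genes that differ in how they are spread over cells. Bases inside an annotated exon were left out. The windows of Actc1 and Myom1 lie wholly inside the gene spans given above, so they are not upstream of the outermost starts of those genes. Distances below count from the listed starts. Capitals mark the CArG box (the motif bound by serum response factor), the letters AGATAA, which are known as a motif of zinc finger factors such as Gata4, and the letters CATTCC, known as a motif of the TEAD factors, each searched on both strands, so a motif may be printed as its reverse complement.
Tnnt2, chr1:135836084-135836333, plus strand: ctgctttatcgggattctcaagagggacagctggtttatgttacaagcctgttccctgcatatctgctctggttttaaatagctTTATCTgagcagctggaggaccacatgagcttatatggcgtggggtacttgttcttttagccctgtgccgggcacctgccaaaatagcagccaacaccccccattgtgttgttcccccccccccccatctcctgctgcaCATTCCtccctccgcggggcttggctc
Pln, chr10:53337436-53337666, plus strand: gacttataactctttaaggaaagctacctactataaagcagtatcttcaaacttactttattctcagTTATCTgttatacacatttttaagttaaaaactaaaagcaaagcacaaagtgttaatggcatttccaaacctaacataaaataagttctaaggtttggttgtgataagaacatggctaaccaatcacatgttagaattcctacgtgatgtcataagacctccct
Actc1, chr2:114052888-114053125, minus strand: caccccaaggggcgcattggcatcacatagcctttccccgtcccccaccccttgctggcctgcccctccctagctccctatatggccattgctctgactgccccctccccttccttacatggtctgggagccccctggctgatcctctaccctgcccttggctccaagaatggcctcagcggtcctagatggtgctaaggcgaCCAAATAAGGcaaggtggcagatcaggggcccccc
Myom1, chr17:71019307-71019520, plus strand: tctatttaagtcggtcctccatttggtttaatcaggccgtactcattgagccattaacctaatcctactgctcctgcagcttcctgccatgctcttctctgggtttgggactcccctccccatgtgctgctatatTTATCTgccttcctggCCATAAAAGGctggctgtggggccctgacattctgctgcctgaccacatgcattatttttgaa
Ldb3, chr14:34588683-34588931, minus strand: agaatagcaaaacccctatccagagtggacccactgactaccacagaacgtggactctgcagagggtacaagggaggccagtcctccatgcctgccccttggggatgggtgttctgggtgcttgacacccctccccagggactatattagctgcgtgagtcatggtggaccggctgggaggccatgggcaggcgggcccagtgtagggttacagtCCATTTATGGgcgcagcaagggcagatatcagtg
A CArG box stood in the promoters of Actc1, Myom1 and Ldb3, beginning 47, 99 and 35 bases before the start, against 1.47% of 32851 promoters of the same 250 bases. The letters AGATAA stood in those of Tnnt2, Pln and Myom1, 166, 183 and 115 bases before the start, against 9.99% of all promoters. CATTCC was found 27 bases before the start in Tnnt2 alone among the 6, against 12.6% of all promoters. CAGACA, the letters of a SMAD-type motif, stood 35 bases before the start of Corin alone, against 17.1% of all promoters. TATAAA was found in Pln alone, against 12.4% of all promoters, and the MEF2 motif, which 2.92% of all promoters hold, in none of the 6. A match is a run of letters and says nothing of binding.

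Of the 7 genes, 4 were called higher and 1 was called lower in KO, where called means an adjusted p under 0.05 by edgeR's quasi-likelihood test with Benjamini-Hochberg adjustment over all tested genes. The same test called 20.3% of 14474 tested genes, 9.17% higher and 11.1% lower, and without WT 1 it called 1844 genes instead of 2938. Since these genes were picked from this comparison, nothing is read from their share. In 5 of the 7 both KO libraries lay above both WT libraries (31.3% of all tested genes) and in 1 both lay below (32.3%). The median log2 difference, KO minus WT, was 0.53 over the 7 genes and -0.0037 over all tested genes. All 7 passed the expression filter. Differences are on the log2 scale of the edgeR fit, and levels are CPM on the TMM-adjusted totals, given as mean ± SD of 2 libraries.

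Among thin filament genes, Tnnt2 had 146 CPM in WT 1, 169 CPM in WT 2, 449 CPM in KO 1 and 348 CPM in KO 2. Both KO libraries were far above both WT libraries, and KO 1 was the highest. Its mean went from 157 ± 16.3 to 399 ± 71.4 CPM (log2 1.34, SE 0.12, n = 2 and 2). Actc1 was nearly absent from WT, with 17 and 30 UMIs (0.487 and 0.609 CPM), and had 1775 and 1344 UMIs in KO (29.9 and 26.1 CPM). This was a 51.1-fold ratio of the means (log2 5.65, SE 0.15), and no library of one genotype came near those of the other. The ratio rests on few WT molecules, and its log2 value lay between 5.51 and 5.84 when any 1 library was left out.

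The Z-disc and M-band genes differed in both directions between genotypes. Nexn had 598 CPM in WT 1, 661 CPM in WT 2, 435 CPM in KO 1 and 438 CPM in KO 2 (629.7 ± 44.7 to 437 ± 2.61 CPM, log2 -0.53, SE 0.07). It was the 1 gene of the 7 that was lower in both KO libraries than in both WT libraries. Ldb3 had 101 CPM in WT 1, 85.4 CPM in WT 2, 115 CPM in KO 1 and 124 CPM in KO 2 (93.1 ± 10.9 to 119 ± 6.51 CPM, log2 0.36, SE 0.09). The groups did not overlap, but WT 1 and KO 1 lay closer together than the 2 WT libraries did, and the call was lost without WT 2 (log2 0.24) and without KO 2 (log2 0.30). Myom1 had 334 CPM in WT 1, 316 CPM in WT 2, 371 CPM in KO 1 and 362 CPM in KO 2 (325 ± 12.9 to 367 ± 6.73 CPM, log2 0.17, SE 0.06) and was not called.

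The membrane genes of calcium and natriuretic peptide handling were less uniform. Pln had 29.1 CPM in WT 1, 25.5 CPM in WT 2, 40.9 CPM in KO 1 and 37.7 CPM in KO 2 (27.3 ± 2.55 to 39.3 ± 2.27 CPM, log2 0.53, SE 0.09), without overlap. In the few cells with under 3 UMIs of each other type's listed markers, described below, its difference was -0.001 (SE 0.19). Corin had 2.15 CPM in WT 1, 3.03 CPM in WT 2, 9.06 CPM in KO 1 and 2.97 CPM in KO 2, or 75, 149, 538 and 153 UMIs in the order WT 1, WT 2, KO 1 and KO 2. KO 1 alone was high, and KO 2 lay between the 2 WT libraries. The difference of Corin (2.59 ± 0.62 to 6.02 ± 4.30 CPM, log2 1.21, SE 0.46) was not called, and it was 0.18 without KO 1. Without KO 2 it was 1.79, with KO 1 as the lone KO library.

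**Figure D1:**
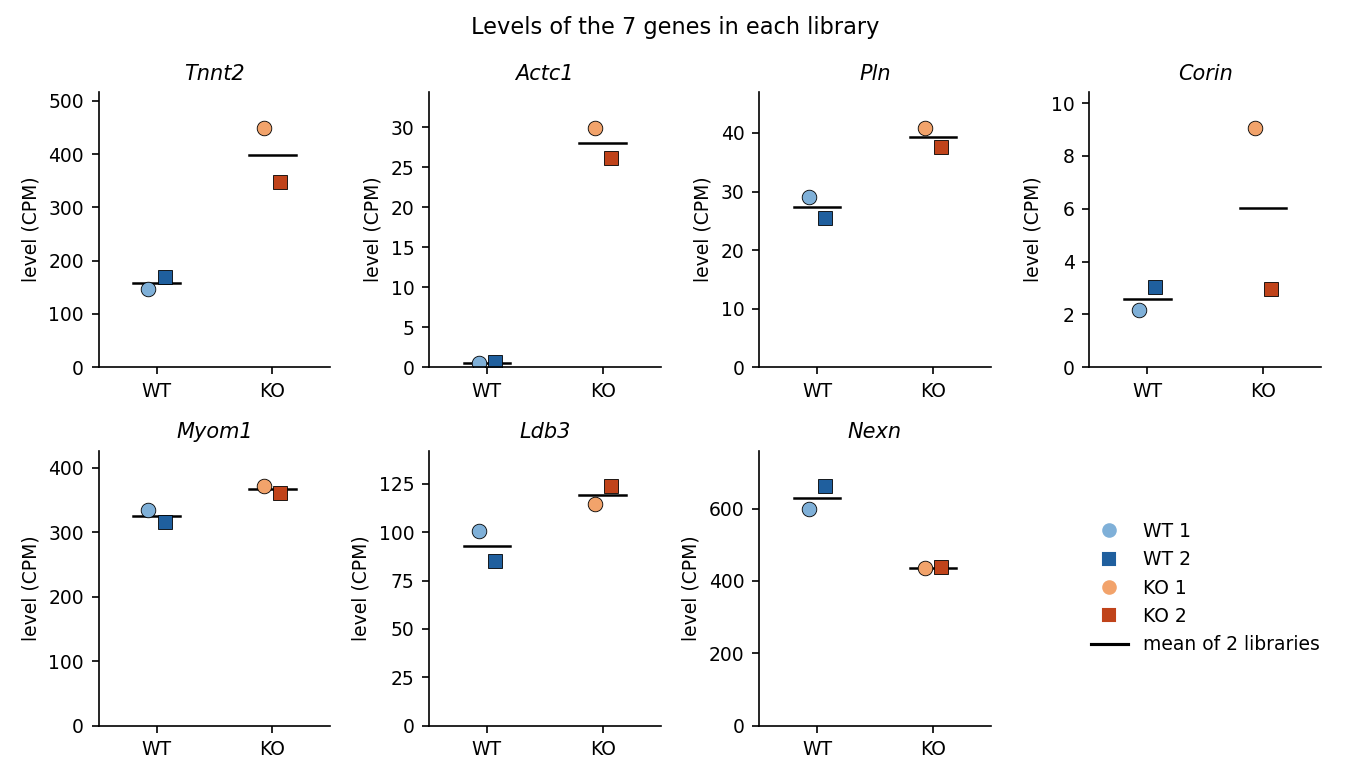
Level of each gene (vertical axis, CPM, from 0) in the WT and KO libraries, with a line at the mean of the 2 libraries of a genotype. Tnnt2, Actc1 and Pln were higher in both KO libraries, Nexn was lower in both, and for Corin only KO 1 stood above WT.

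Markers of heart muscle cells themselves were mostly near 0. In the same library order, the sum over 18 cardiomyocyte markers was 91.7, 102, 86.4 and 79.7 CPM, of which Ryr2, the calcium release channel, made up 53.0 CPM on average. Of these markers 10 stayed under 1 CPM in every library, among them Myl2, Myl3, Myl7 and Mybpc3, and Nppb was at 0. The 14 markers under 5 CPM in every library summed to 3.76, 5.10, 6.72 and 5.58 CPM. Cells with at least 3 UMIs of these 14 numbered 5, 15, 22 and 19, and they held 2.08%, 3.85%, 3.50% and 0.37% of the Tnnt2 UMIs. Without the cells that carried such markers of any other cell type, an alternative chosen after seeing the data, the log2 difference was 1.37 for Tnnt2, 5.72 for Actc1, 0.52 for Pln and 1.25 for Corin. Counting all listed markers instead left 333, 382, 860 and 647 cells, in which the difference was 0.95 for Tnnt2, -0.001 for Pln and -0.01 for Corin. Fibroblast markers also moved with genotype, with sums over 8 markers of 19.1 and 19.3 CPM in the WT libraries, and of 44.3 and 68.5 CPM in the KO libraries, and macrophage markers summed to 8.05 CPM in KO 1 against 0.305 to 0.545 CPM in the other 3 libraries. Of the fibroblast markers 2 stayed under 1 CPM everywhere, of the macrophage markers 5. Sums without overlap between genotypes also included those of Schwann and nerve markers (533 and 546 CPM in the WT libraries, 390 and 430 CPM in KO, nearly all of it Ncam1), endothelial markers (43.1 and 46.9 against 34.1 and 34.0 CPM) and adipocyte markers (1.78 and 2.50 against 8.44 and 6.24 CPM). The cardiomyocyte sum given above and the erythroid sum (under 0.3 CPM) were lower in both KO libraries. Smooth muscle markers (46233 and 48372 against 52654 and 49583 CPM) and skeletal muscle markers (13.6 and 13.8 against 16.5 and 14.6 CPM) summed higher in both. Their part in the differences was not tested further.

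The 7 genes were spread over cells in 3 ways. Nexn, Myom1 and Ldb3 were broad. Nexn was detected in 95.8% to 98.3% of kept cells, Myom1 in 91.3% to 94.0% and Ldb3 in 63.6% to 72.8%. The 10% of cells richest in each of these genes held 21.3% to 33.9% of its UMIs. After each cell was thinned to 5000 UMIs, which makes shares comparable across depths and leaves out cells with fewer, the variance of their UMIs per cell was 1.08 to 1.39 times the mean, where sampling of molecules alone gives about 1.

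Tnnt2 and Pln were patchy. Tnnt2 was detected in 35.8% of cells of WT 1 (95% exact binomial interval 33.9% to 37.8%), 37.1% of WT 2 (35.5% to 38.8%), 49.4% of KO 1 (47.9% to 50.9%) and 41.7% of KO 2 (40.0% to 43.3%). Intervals cover counting error only. After thinning the shares were 25.0%, 25.1%, 36.8% and 30.1%, or 25.1 ± 0.07% in WT and 33.4 ± 4.72% in KO. Both KO libraries lay above WT, and the KO libraries differed from each other by more than the WT libraries did. Cells with Tnnt2 also held more of it, 5.85 and 6.86 UMIs on average in WT and 12.7 and 12.2 UMIs in KO. The richest cell had 92 and 98 UMIs in WT and 247 and 259 UMIs in KO, and cells with at least 20 UMIs numbered 55, 110, 352 and 240. The thinned variance was 5.5 and 6.81 times the mean in WT and 16.6 and 14.1 times in KO. The 10% of cells richest in Tnnt2 held 72.9% to 77.8% of its UMIs in the 4 libraries.

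Pln was detected in 20.3%, 18.3%, 22.6% and 21.8% of cells of WT 1, WT 2, KO 1 and KO 2, or in 11.2%, 9.12%, 12.8% and 11.8% after thinning. The KO shares lay above the WT shares, by little between WT 1 and KO 2. Positive cells averaged 2.05 and 2.10 UMIs in WT and 2.52 and 2.53 UMIs in KO. Corin was rare. It was seen in 35, 69, 200 and 73 cells, or 1.44%, 2.11%, 4.70% and 2.07%, and again only KO 1 stood apart. No cell class that should lack these genes was large enough here to measure free RNA, so a background share is not given.

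Actc1 was rare. It was detected in 9 and 5 cells in WT (0.37% and 0.15%) and in 144 and 114 cells in KO (3.39% and 3.24%), and in 0.27%, 0.06%, 2.15% and 2.27% of cells after thinning. Both KO shares were well above both WT shares, and the 2 KO libraries were nearly equal. Cells with at least 5 Actc1 UMIs numbered 1 and 1 in WT, with 6 and 26 UMIs, and 64 and 52 in KO, with up to 115 and 151 UMIs in a cell. In KO these cells, 1.51% and 1.48% of all, held 93.1% and 93.4% of the Actc1 UMIs. Their median depth was slightly higher in both KO libraries, 14357 and 14961 UMIs against 13891 and 14361 UMIs in the rest, and the part of depth was not tested. They carried the smooth muscle genes Myh11, at 7215 and 7980 CPM against 7217 and 7128 CPM in the rest, and Acta2, at 26537 and 25565 CPM against 24912 and 23838 CPM. Tnnt2 was detected in 64.1% and 46.2% of them, against 49.2% and 41.6% of the other cells of KO 1 and KO 2.

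**Figure D2:**
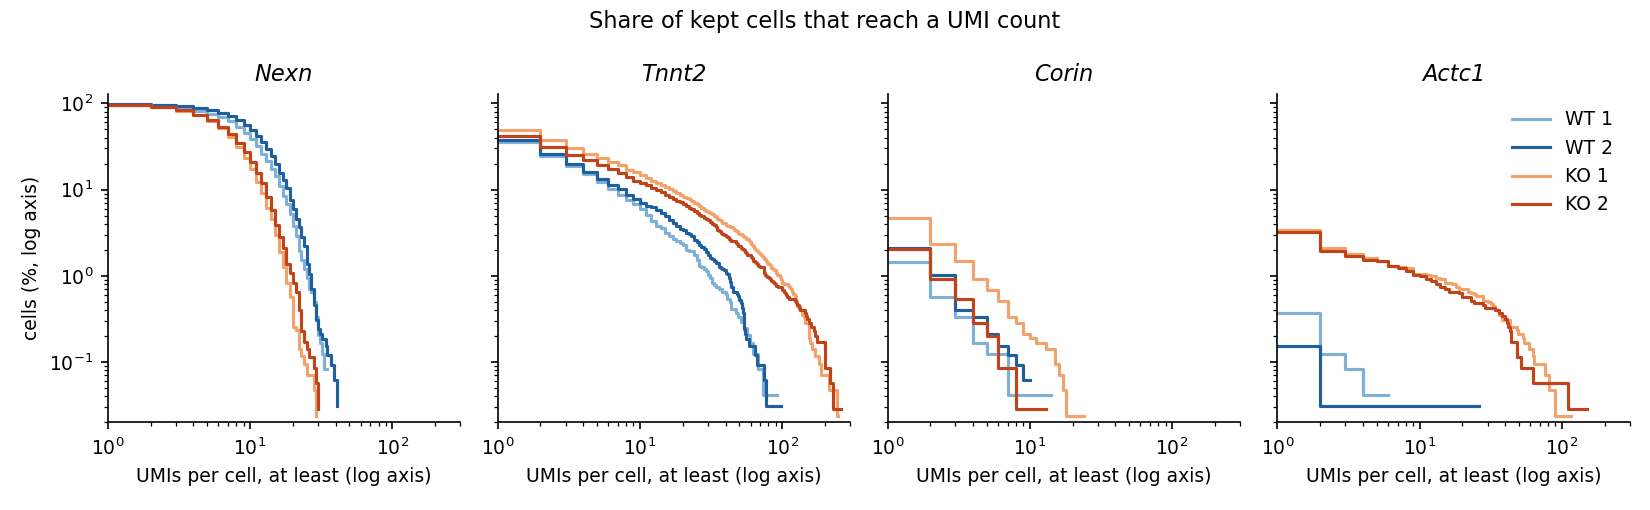
Share of kept cells (vertical log axis, percent) with at least the number of UMIs on the horizontal log axis, by library, for Nexn, Tnnt2, Corin and Actc1. Nexn falls off within a narrow range in all libraries, Tnnt2 has a long tail that reaches 247 and 259 UMIs in KO, and Actc1 is a thin tail of KO cells.

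Tnnt2, Pln and Corin were found in the same cells more often than their shares alone would give. Such joint detection was part of how the genes were chosen, so the ratios are a description only. In thinned cells, the number of cells with both genes was divided by the product of the 2 shares times the cells. For Tnnt2 with Corin this ratio was 2.28, 3.41, 2.32 and 2.57 in WT 1, WT 2, KO 1 and KO 2. Of the Corin-positive cells 57.1%, 85.7%, 85.5% and 77.4% also had Tnnt2, against 24.7%, 24.4%, 35.4% and 29.7% of the others. The pair was enriched in every library, least in WT 1, which had 12 such cells. For Pln with Corin the ratio was 2.13, 5.01, 2.90 and 3.27, from 5 cells in WT 1 to 41 cells in KO 1. For Tnnt2 with Pln it was 1.11, 1.66, 1.52 and 1.41. Cells with all 3 genes numbered 3, 14, 40 and 8 after thinning, where the product of the shares gives 0.587, 0.802, 5.2 and 1.11 cells. The count exceeded the product in every library, and in WT 1 it rests on 3 cells.

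Most other pairs lay near 1. Corin with Ldb3 ranged from 0.971 in KO 2 to 1.44 in WT 1. Of 21 pairs, 8 were above the product of their shares in all 4 libraries. The 5 of these beyond the ones named, Tnnt2 with Myom1 and with Ldb3, and the 3 pairs among Myom1, Ldb3 and Nexn, had ratios from 1.00 to 1.06. Corin with Myom1 was below 1 in all 4 libraries, from 0.874 to 0.989. Actc1 was detected in too few WT cells to pair. In KO its ratio with Tnnt2 was 1.27 in KO 1 and 1.01 in KO 2.

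**Figure D3:**
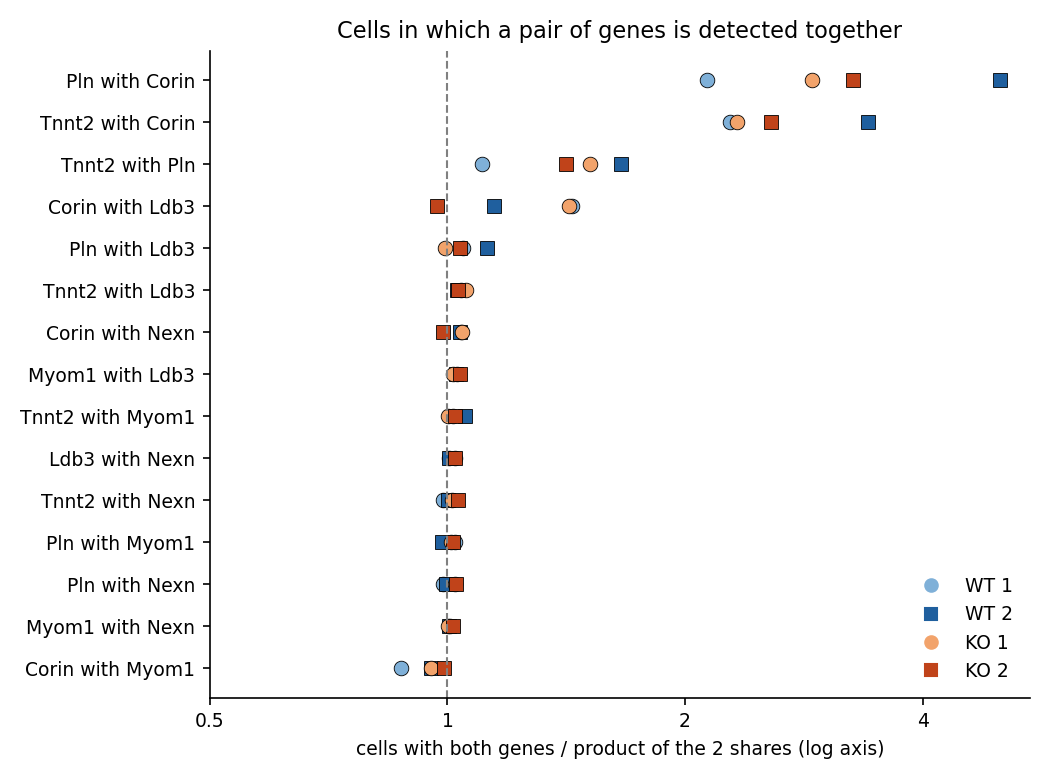
Ratio of the cells in which a pair of genes was detected together to the product of their shares (horizontal log axis), by library, for the 15 pairs without Actc1 in cells thinned to 5000 UMIs. Pln with Corin and Tnnt2 with Corin lie above 2 in every library, Tnnt2 with Pln between 1.11 and 1.66, and the pairs of broad genes close to 1.

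Corin and Pln were highest in thinned cells with 10 or more Tnnt2 UMIs, without a steady rise below that step. In WT 1, Corin was at 0 CPM in the 63 cells with 5 to 9 Tnnt2 UMIs. Of the 25 cells of WT 1 with 10 or more, 8.0% had Corin. Pln in KO 1 went from 61.6 CPM at 2 to 4 Tnnt2 UMIs to 49.6 CPM at 5 to 9. In cells with no Tnnt2 UMI after thinning, Corin stood at 1.55, 0.689, 1.23 and 0.683 CPM. In cells with 10 or more it stood at 32.0, 63.2, 87.1 and 32.9 CPM. Pln went from 28.7, 18.9, 26.4 and 31.1 CPM to 80.0, 144, 122 and 101 CPM between the same steps. Nexn changed little, from 584, 658, 435 and 440 CPM to 504, 726, 452 and 467 CPM. The top step held 25 and 57 cells in WT and 264 and 158 cells in KO. Actc1 went from 19.3 to 155 CPM in KO 1 but from 26.6 to 8.86 CPM in KO 2, so the 2 KO libraries went opposite ways.

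**Figure D4:**
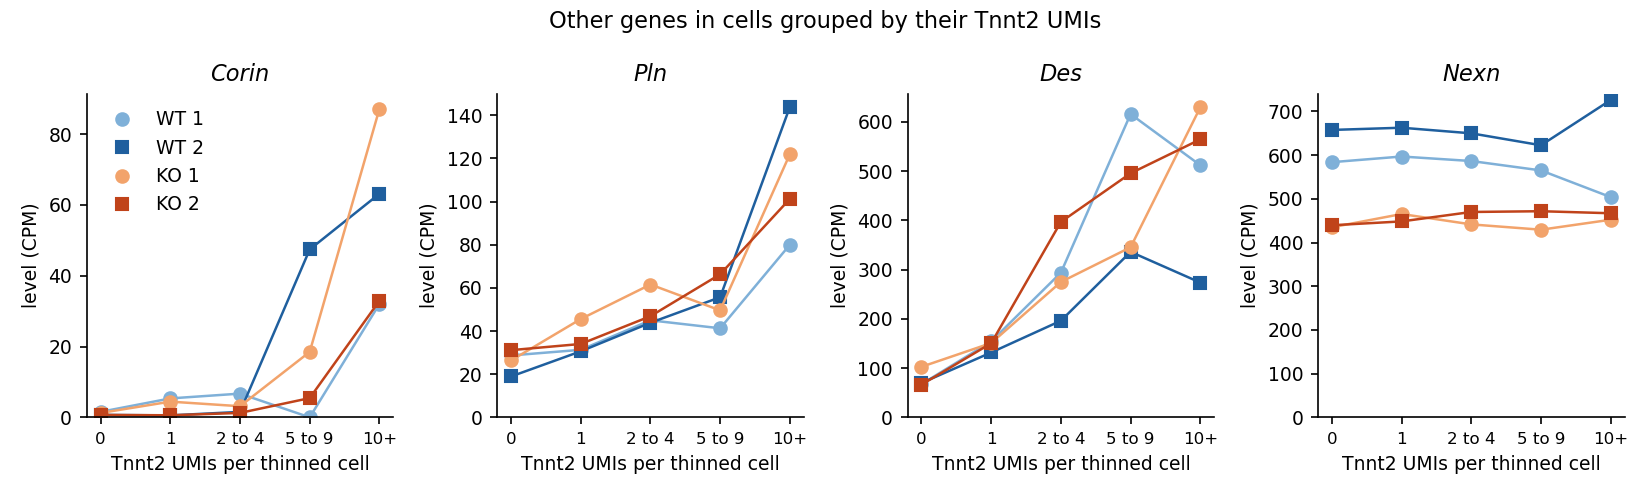
Levels of Corin, Pln, Des and Nexn (vertical axes, CPM, from 0) in thinned cells grouped by their Tnnt2 UMIs, with 1 line per library. Corin and Pln are highest at 10 or more Tnnt2 UMIs in every library, and Nexn stays nearly level. Des rises from the first step up to 5 to 9 UMIs, and at 10 or more it is higher still in KO but lower again in both WT libraries.

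The genes whose UMIs went most like those of each member were found from Pearson correlations across the cells of a library (log1p of thinned UMIs), averaged over 4 libraries, among 5744 genes. The values are weak, the cells of a library share its chemistry and depth, and no test is attached. For Tnnt2 the first was Des, the muscle intermediate filament desmin (mean r 0.28, from 0.22 to 0.32), then the long non-coding RNA Hand2os1 beside Hand2 (0.23), Corin (0.23), Mtus2 (0.15), Pln (0.14) and Gm13889 (0.14). For Corin, genes near the top were Tnnt2 (0.23), Pln (0.12), the apolipoprotein gene Apoe (0.11) and Tm4sf1 (0.07). For Pln the first were Mgp, matrix Gla protein (0.18), Tnnt2 (0.14) and Corin (0.12), then Cst3 and Ccn3 (0.11 each). Mfap5, a protein of elastic microfibrils, was the lowest of all ranked genes for Tnnt2 (-0.19), Pln (-0.15) and Corin (-0.11). The broad genes went with smooth muscle contractile genes instead: Myom1 with Myh11 (0.23), Ldb3 with Myh11 (0.12) and Nexn with Acta2 (0.16). For Actc1 no gene exceeded 0.05, with Apoe first, which is no finding.

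Thinned cells with at least 1 Tnnt2 UMI were then compared with cells without one in the same library, with counts summed per class and library and the library as a block. The classes held 559 and 1673, 780 and 2323, 1508 and 2594, and 1009 and 2344 cells in WT 1, WT 2, KO 1 and KO 2. Gata4, Des and Tmod1 were among the genes higher in cells with Tnnt2, and Rgs5, Sfrp2, Thbd and Fabp4 were among the genes that were lower. The test called 6.7% of 12320 genes, 3.47% (427 genes) higher and 3.23% (398 genes) lower, with a median log2 difference of 0.0034 over all tested genes. DESeq2 called 309 of the same 825 genes, and without KO 2 the count was 487. Thinning is a random draw: another random seed gave 882 calls, with 628 of the 825 among them. At 3000 UMIs per cell 675 genes were called, with 507 of the 825 among them.

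Of 23 tested muscle transcription regulators 5 were higher and 2 lower in cells with Tnnt2, with a list median of 0.05. Gata4, a zinc finger factor of heart development, stood at 10.9, 17.9, 15.5 and 7.84 CPM in cells with Tnnt2 and at 2.27, 2.31, 1.36 and 0.743 CPM in cells without it, in the order WT 1, WT 2, KO 1 and KO 2. Every library showed the difference (log2 3.04, SE 0.19, adjusted p = 1.0e-11 by edgeR). Nkx2-5, the cardiac homeobox factor, stood at 1.46, 1.58, 2.68 and 1.81 CPM against 0, 0.171, 0.303 and 0.0825 CPM (log2 3.52, SE 0.53). In cells without Tnnt2 it was too low for the expression filter. Nkx2-5 entered the test through cells with Tnnt2, so its value and its place among the 5 are a description. The fitted value of such a low gene depends on the prior count. Hand2, a factor of the heart and neural crest, was higher by 0.41 (SE 0.05) and the homeobox gene Irx3 by 0.31 (SE 0.09). Isl1, a factor of second heart field progenitors, was higher by 1.07 (SE 0.27, adjusted p = 0.0109 by edgeR), at 4.38, 3.16, 3.48 and 6.84 CPM against 0.958, 1.03, 3.03 and 2.72 CPM. It was not called without KO 2 (adjusted p = 0.196), with DESeq2 (0.0914) or at 3000 UMIs (0.507). Mef2a was lower by a small step (log2 -0.19, SE 0.04). Tbx1, a T-box factor of the pharyngeal arches, had a log2 difference of -1.85 (SE 0.42) at under 3 CPM. By edgeR it was not called without KO 1 (adjusted p = 0.0741) or without KO 2 (0.0693), nor was it with DESeq2 (0.178). In cells with Tnnt2 it was mostly too low for the expression filter. Tbx1 entered the test through cells without Tnnt2, so its value and its place among the 2 are a description.

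Of 12 tested thin filament genes 4 were higher and none lower (list median 0.10). They were Lmod2, leiomodin 2, which elongates cardiac thin filaments (log2 3.16, SE 0.54, at 0.730, 2.63, 0.938 and 2.41 CPM against 0 to 0.330 CPM), Tmod1, which caps their pointed ends (0.49, SE 0.08, with no difference in WT 1), and the tropomyosins Tpm1 (0.20, SE 0.03) and Tpm2 (0.22, SE 0.03). In cells without Tnnt2, Lmod2 was too low for the expression filter. It entered the test through cells with Tnnt2, so its value and its place among the 4 are a description. Among 25 Z-disc and costamere genes 8 were higher and none lower (median 0.11), led by Des. Des stood at 280, 194, 310 and 362 CPM in cells with Tnnt2 against 67.5, 69.3, 101 and 64.2 CPM in the others (log2 1.91, SE 0.09, adjusted p = 2.5e-14 by edgeR). Ankrd1, the stress-responsive ankyrin repeat protein of the sarcomere, was higher by 0.98 (SE 0.09) and Myoz2, a calcineurin-binding Z-disc protein, by 0.49 (SE 0.07). None of 5 tested thick filament and M-band genes passed, and 1 of 4 actin isoforms did (Acta2, log2 0.12).

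Among 24 calcium store genes 2 were higher and none lower (median 0.07): the exchanger Slc8a1 (0.32, SE 0.05) and the channel subunit Cacnb2 (0.26, SE 0.07). Of 7 genes of the natriuretic peptide axis, Npr1, the receptor of atrial natriuretic peptide, was lower in cells with Tnnt2 in every library (log2 -0.48, SE 0.05, adjusted p = 3.3e-07 by edgeR), at 85.7, 82.9, 65.8 and 67.4 CPM against 108, 104, 100.4 and 101.3 CPM. Pcsk6, a proprotein convertase that cleaves corin, was higher by 0.55 (SE 0.15), though not in WT 1, where the log2 difference was -0.13. Of 28 smooth muscle contractile genes 12 were higher and 2 lower (median 0.10). The rises other than Des were small, up to 0.22 for Tpm2, and the lower ones were Rgs5 (-0.91) and Notch3 (-0.38).

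Among 499 genes of at least 20 CPM that were called and moved the same way in all libraries, the largest rises after Psd (log2 2.41, SE 0.10), an exchange factor for Arf6, and Des were Hand2os1 (1.34, SE 0.08) and Tmem176b (1.17, SE 0.12). Psd stood at 32.8, 33.7, 37.1 and 48.1 CPM against 5.27, 6.08, 8.32 and 8.34 CPM. Pln, described below, came next, followed by Bmp3 (1.03), a BMP family ligand that antagonises other BMPs, Ankrd1, the proteoglycan gene Dcn (0.86, SE 0.15), Bex4 (0.75) and Tpd52l1 (0.68). Dcn was not called with DESeq2 (adjusted p = 0.421), and it is also a fibroblast marker. The sum of the 8 fibroblast markers was 37.6, 23.3, 57.8 and 88.2 CPM in cells with Tnnt2 and 13.4, 22.4, 43.1 and 60.4 CPM in the others, and its part in the comparison was not tested. The 18 cardiomyocyte markers, of which Nkx2-5 is 1, summed to 94.5, 113, 92.4 and 90.6 CPM in cells with Tnnt2 and 92.3, 91.6, 84.7 and 76.6 CPM in the others. The sum was higher in cells with Tnnt2 in 4 of 4 libraries, and its part was not tested.

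The largest falls were Mia (log2 -1.24, SE 0.07), a secreted protein of cartilage, the homeobox gene Prrx2 (-1.16, SE 0.12), and Smoc1 (-0.995, SE 0.06), a matrix protein that inhibits BMP signalling. Thbd, thrombomodulin (-0.98), Gm26771 (-0.98), the secreted Wnt modulator Sfrp2 (-0.96) and the fatty acid binding protein gene Fabp4 (-0.93) followed. Rgs5, a regulator of G protein signalling (-0.91, SE 0.12), ranged from 220 against 232 CPM in WT 1 to 122 against 331 CPM in KO 2, and was not called with DESeq2 (adjusted p = 0.188). The water channel gene Aqp1 (-0.73) and Hacd4 (-0.69) were last. Cells with Tnnt2 had sums of 41.5, 37.7, 22.9 and 21.4 CPM over 10 endothelial markers, of which Erg is the most abundant, and the others had 43.6, 48.6, 49.7 and 44.3 CPM. Pericyte markers were also lower in cells with Tnnt2 in every library (221, 205, 209 and 223 CPM against 253, 259, 248 and 307 CPM for the sum of 5), as were the 6 Schwann and nerve markers (471, 480.0, 370 and 359 CPM against 547, 572, 420 and 479 CPM). The part of these markers in the falls was not tested.

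**Figure D5:**
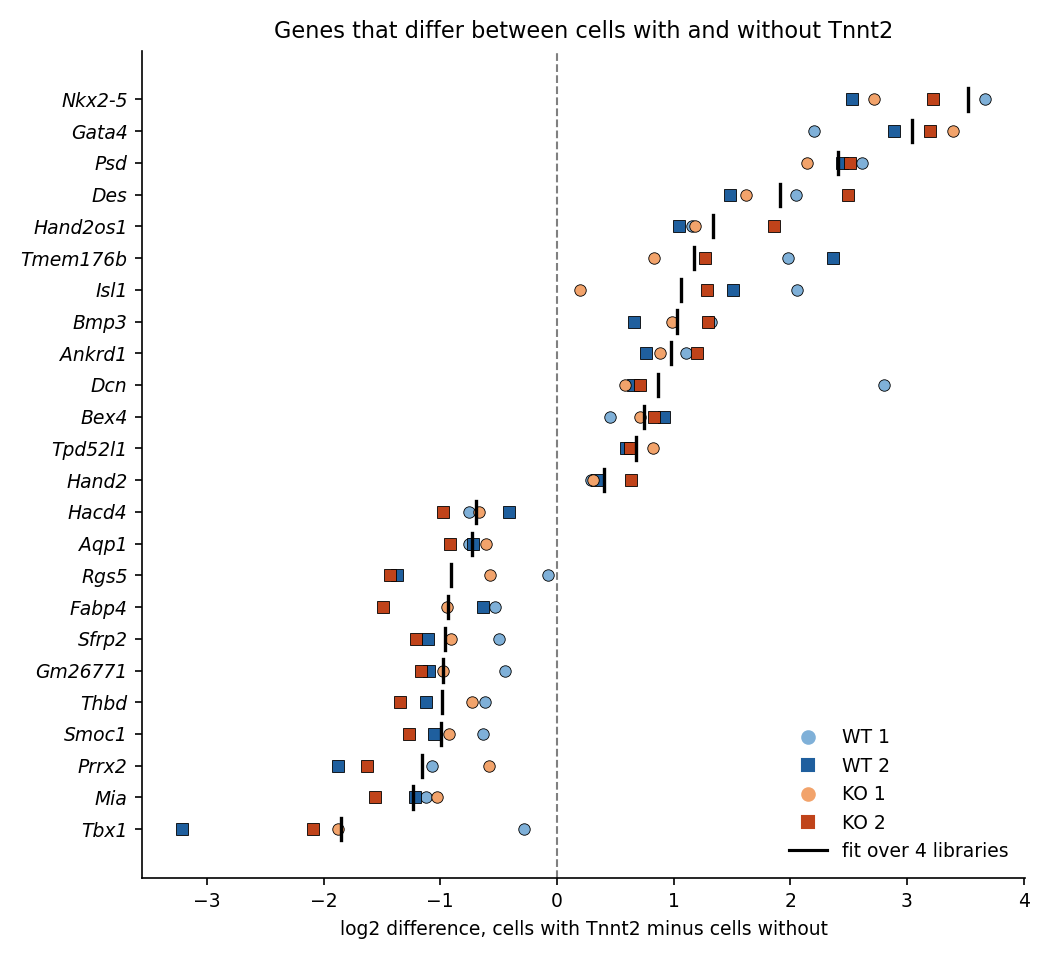
Log2 difference between thinned cells with and without Tnnt2 (horizontal axis) for genes named by rule and for 5 transcription factors, with 1 point per library and a bar at the fit over 4 libraries. Psd, Des and Gata4 are above 1 in every library, while Isl1 in KO 1, Rgs5 in WT 1 and Tbx1 in WT 1 lie close to 0.

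As a description, the other members followed the pattern of the pairs. Cells with Tnnt2 had more Corin (log2 3.59, SE 0.23, from 1.99 in WT 1 to 3.98 in KO 1) and more Pln (1.07, SE 0.09, from 0.49 in WT 1 to 1.34 in KO 1). Nexn (0.08), Myom1 (0.11) and Ldb3 (0.14) differed little. Actc1 had 1.37 in KO 1 and -0.52 in KO 2. The difference between the classes was itself compared between genotypes, and 0.0162% of 12320 genes (2 genes) were called, with 620 at an unadjusted p under 0.05 and 1 called by DESeq2.

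Between genotypes, other genes of the same structures were compared from lists chosen by textbook roles. The shares of all tested genes given above, 9.17% higher and 11.1% lower, are the background of each count that follows. Of 15 tested thin filament genes 7 rose, 1 fell and 7 did not pass, with a median log2 difference of 0.48 against -0.0037 over all tested genes. Tpm2, beta-tropomyosin, rose, with 5353 ± 64.2 CPM in WT and 8512 ± 668 CPM in KO (log2 0.67, SE 0.06, adjusted p = 0.000263 by edgeR). Tnnt3, fast skeletal troponin T, rose by 1.01 (SE 0.15) from 2.27 ± 0.09 to 4.58 ± 0.29 CPM, and Tmod1 by 0.48 (SE 0.08). Tnnt1 (0.84), Tpm1 (0.31), Tnnc2 (0.98) and Tnni3, cardiac troponin I (1.69, under 2 CPM), made up the rest of the rises. Tnni3 had 7 and 34 UMIs in the WT libraries and 67 and 100 UMIs in KO, and WT 1 fell just short of the expression filter. Since it entered the test through the KO libraries, its value and its place among the 7 are a description. The fall was Tnnc1, cardiac troponin C, at 1.98 and 0.711 CPM in the WT libraries, 0.421 CPM in KO 1 and 0.369 CPM in KO 2 (log2 -1.71, SE 0.48, adjusted p = 0.0408 by edgeR). Of 5 actin isoforms beside Actc1, the enteric smooth muscle actin Actg2 rose (0.76, SE 0.08, 406 ± 41.0 to 688 ± 21.4 CPM), and Acta1 (0.69, SE 0.44, under 0.3 CPM) and Actb (0.12, SE 0.07) did not pass.

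Striated thick filament and M-band genes stayed low. Of 20 listed genes 8 reached the expression filter, none rose and 1 fell, Obsl1, an obscurin-like cytoskeletal adaptor (log2 -0.53, SE 0.13), which was not called without WT 1 (adjusted p = 0.119) or without KO 2 (0.0728). Myh6, alpha-cardiac myosin, had 1, 17, 115 and 20 UMIs and a difference of 2.49 (SE 0.89, adjusted p = 0.0857 by edgeR). Without WT 1, WT 2, KO 1 and KO 2 in turn, the difference of Myh6 was 1.76, 5.24, 0.90 and 3.20. It was 0.45 (SE 0.69) without the cells that carried markers of other types under 5 CPM, and Myh6 is itself among those markers. Myh7 had 0.83 (SE 0.33) and did not pass. Z-disc and costamere genes went both ways: of 26 tested 8 rose, 7 fell and 11 did not pass (median 0.14). The largest of the falls, Csrp2, a LIM protein of smooth muscle, went from 4089 ± 178 to 1377 ± 37.4 CPM (-1.57, SE 0.06), and the PDZ and LIM genes Pdlim1 and Pdlim7 fell by 1.49 (SE 0.06) and 0.84 (SE 0.06).

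Of 26 calcium store genes 2 rose, 8 fell and 16 did not pass (median -0.07), while Pln, in the same system, stood higher in KO. Casq1, a calcium buffer of the store, fell from 28.9 ± 4.09 to 13.8 ± 1.48 CPM (log2 -1.06, SE 0.12), though its difference was -0.38 (adjusted p = 0.287 by edgeR) in the few cells with under 3 UMIs of each other type's listed markers. In those cells the calls of Tmod1 (0.41), Obsl1 (-0.72), Slc8a1 (0.30), Prkg1 (0.28) and Isl1 (1.30) were also lost, with adjusted p from 0.130 to 0.220 by edgeR. The channel subunit Cacna2d1 had a difference of -0.50 (SE 0.06). Slc8a1, the sodium-calcium exchanger, rose by 0.50 (SE 0.07). In the natriuretic peptide axis, beside Corin, Prkg1, the cGMP-dependent kinase, rose by 0.35 (SE 0.06), and Furin fell (log2 -0.34, SE 0.09), though not without WT 1 (adjusted p = 0.218) or without KO 2 (0.115). Npr1 had -0.20 (SE 0.06) and did not pass, like 4 other genes of the 7 tested. Of 26 transcription regulators 22 did not pass (median 0.22). Mef2d (-0.70, SE 0.09) and Foxc1 (-0.26, SE 0.07) fell, and Hand2 (0.55, SE 0.08) and Isl1 (1.19, SE 0.24) rose. Gata4, so much higher in cells with Tnnt2, had 4.10, 4.81, 6.28 and 2.35 CPM in the 4 libraries (log2 -0.04, SE 0.38) and did not pass, nor did Nkx2-5 (0.98, SE 0.34, adjusted p = 0.0813 by edgeR).

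Of 28 smooth muscle contractile genes 9 rose, 4 fell and 15 did not pass (median 0.14). Mustn1, a small nuclear protein of muscle, went from 497 ± 23.7 to 1038 ± 96.9 CPM (log2 1.06, SE 0.08), followed in p by Tpm2 and Actg2.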

How the data were processed

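Expression was measured in 4 single-cell libraries, 2 of each genotype, from the labels' groups. As deposited, the values are raw UMI counts for each gene in each cell. Per the file headers, they were written by Cell Ranger 5.0.1. The submitters' processing notes name mm10 and Seurat 4.0 without saying how they were used, and they give no counting settings.

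Of 14696 barcodes, 13468 passed a minimum of 1000 UMIs and 500 genes and a mitochondrial limit of 10%. No doublet was removed. The labels state 2597, 3420, 4376 and 3707 cells before and 2151, 3000, 4031 and 3246 after their own filter. Counts were summed per library and tested with edgeR 4.0.16 (R 4.3.3; quasi-likelihood test, TMM, filterByExpr, Benjamini-Hochberg, threshold 0.05). All 4 libraries entered, with no replicate block for genotype and the library as block for the comparison of cells with and without Tnnt2, in which every cell was thinned to 5000 UMIs. The biological coefficient of variation between libraries was 7.84%. DESeq2 1.42.0, limma 3.58.1 and other filters, depths and left-out libraries were alternatives. The fits were tested on simulated data. Shares have exact binomial 95% intervals.

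The members and lists were chosen with earlier results of these data known. Named beside the members were up to 3 genes per list with the smallest p between genotypes, the 5 genes most correlated with Tnnt2, Actc1, Pln and Corin, and the 10 largest rises and falls of at least 20 CPM between cells with and without Tnnt2 that went the same way in all libraries. Not every gene that this rule names is reported here. Other genes, including the transcription factors and list members given for cells with Tnnt2, were chosen with their values in view. Gene models come from GENCODE M21 and promoters from RefSeq.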

Additional observations from a re-analysis of the deposited data

Results flagged for a closer look

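For 2 genes the difference between cells with and without Tnnt2 itself differed between genotypes by edgeR's test of that difference. Vcam1, a cell adhesion molecule, stood at 31.4 and 32.6 CPM in WT cells with Tnnt2 against 14.5 and 14.4 CPM in those without it, and at 19.6 and 16.3 CPM against 25.0 and 17.2 CPM in KO 1 and KO 2. The change of its log2 difference, KO minus WT, was -1.40 (SE 0.17, adjusted p = 0.00445), and it was not called with DESeq2, with at least 2 Tnnt2 UMIs in place of 1 (adjusted p = 0.744) or at 10000 UMIs per cell (0.0666). Cytl1, a secreted cytokine-like protein, stood at 11.3 and 1.58 CPM in WT cells with Tnnt2 against 4.19 and 1.2 CPM without, and at 0.804 and 0.402 CPM against 19.97 and 11.1 CPM in KO. Its change was -5.84 (SE 0.49, adjusted p = 8.4e-05). In KO both libraries had Cytl1 almost wholly in cells without Tnnt2.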

How the results depend on the processing

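Between genotypes, 1026 genes were called when cells with markers of other types were left out, which kept only 333, 382, 860 and 647 cells because Ncam1, Ryr2 and other listed markers are expressed across these cells. Pln was then at -0.001 and Npr1 at 0.0072. Removing only cells with markers under 5 CPM, an alternative chosen after seeing the data, gave 3060 calls and moved no member by more than its replicate SD. Leaving out 1 library gave 1844 to 2428 calls and 4 to 5 called members, and no filter on low counts gave 4085.

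Between cells with and without Tnnt2, DESeq2 called 309 genes, and leaving out 1 library gave 487 to 839 calls. The comparison of classes between genotypes gave 1 call with DESeq2, 21 without a filter, 5 at 10000 UMIs, 4 with another random seed and 6 without the 5% of cells with most UMIs. The gain in the share of cells with Actc1, 2.04 percentage points, was 1.78 at 3000 UMIs, 2.61 at 10000, 3.05 unthinned and 2.21 without the richest 5% of cells. The cause was not tested.

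Deviations of same-numbered libraries correlated at -0.0047 over 5743 genes. With 2 libraries per genotype this cannot show whether same-numbered libraries were handled together. The fit with a replicate block called 3274 genes and 6 of the 7 members, with Corin (1.02) added.

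With 2 libraries per genotype, and 17 and 30 Actc1 UMIs in WT, precision is limited for the rare genes.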
